A study of Mus musculus with 18 samples.

Results

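Collagen genes were taken from mouse colon RNA as every gene of the deposited table whose symbol names a collagen alpha chain, which gave 44 of 35405 genes. By class they were 11 fibrillar, 9 network-forming, 9 fibril-associated, 6 beaded-filament, 4 transmembrane and 2 multiplexin genes, 1 anchoring-fibril gene and 2 others. The libraries are 6 labelled IBC, 6 labelled TNBS and 6 labelled vector, the last called control in the table. Isobavachalcone is a chalcone from plants, and TNBS is trinitrobenzene sulfonic acid, a hapten that provokes colitis in rodents. The study's title names isobavachalcone in full and ties it to TNBS colitis as a likeness of Crohn's disease, and the libraries labelled IBC are taken here as those of that compound. Strain, age, dose and time are not in the labels, and neither is whether IBC animals were given TNBS too or whether a library is 1 animal. The p-values below therefore measure the spread between libraries.

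Collagens are proteins of the extracellular matrix whose chains wind into a stiff helix. Fibrillar types I, III and V build the fibers of the gut submucosa, and type IV forms the sheet of the basement membrane under epithelium and around vessels and smooth muscle. Type VI makes beaded filaments near cells, types XII, XIV and XVI bind along fibrils, and the multiplexins XV and XVIII belong to basement membranes. Fibroblasts make most fibrillar collagen of the gut, and deposition of type I and III collagen in the wall accompanies the narrowing of the bowel in scarring Crohn's disease.

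Totals were 55.7 to 78.9 per library, in units of 1e6 counts. The libraries fell into sets by Hoxb13, a homeobox gene of the hindmost gut, which was at 123 to 598 CPM (counts per 1e6 of the total, with totals scaled by edgeR's TMM method) in 12 libraries and at most 1.44 CPM in 6. Low were IBC 2 and 5, TNBS 2 and 3, and vector 3 and 4, so that 4 libraries of every group were high. Vector 3 also had 18% mitochondrial counts, the most of the 18 libraries, and vector 6 had 11900 CPM of summed pancreatic acinar markers, against at most 377 CPM in any IBC or TNBS library. Colon epithelium markers were present in all 18, at no less than 4830 CPM summed.

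Genes were compared with each other per length, as FPKM (fragments per kilobase of transcript per 1e6 fragments). Fibrillar chains made up 57.7% of the summed collagen FPKM, beaded-filament chains 18.5% and network chains 15.3%. Col3a1, the chain of type III collagen, was highest at 111 ± 85.4 FPKM (mean ± SD, n = 18), followed by the type I chain Col1a1 at 63.3 ± 66.0 FPKM. With the other type I chain, Col1a2, they held 50.4% of the sum. Next came the type VI chain Col6a1 at 43.2 ± 16.8, Col1a2 at 39.0 ± 34.2 and the basement membrane chain Col4a1 at 35.5 ± 26.3 FPKM, whose means lie within their spread over libraries of each other.

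Below them were Col4a2, the partner chain of Col4a1, at 25.3 ± 16.4 FPKM and Col6a2, a second type VI chain, at 22.0 ± 9.14 FPKM. Among basement membrane multiplexins Col18a1, which carries the endostatin sequence, stood at 11.1 ± 8.64 FPKM. The fibril-associated class was led by Col16a1 at 5.33 ± 2.01, Col14a1 at 4.83 ± 3.14 and Col12a1 at 3.51 ± 2.16 FPKM. Collagens of skin-type epithelium were scarce. Col7a1, the chain of anchoring fibrils, averaged 0.292 ± 0.200 FPKM and Col17a1, a collagen of hemidesmosomes, 0.0810 ± 0.0623 FPKM.

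Minor chains filled the rest of the list. The transmembrane collagens Col13a1 and Col25a1, which stud the surface of muscle and nerve cells, had 1.38 to 2.93 and 0.314 to 2.15 CPM in IBC, 0.668 to 4.65 and 0.0 to 1.60 CPM in TNBS and 1.71 to 4.15 and 0.339 to 1.87 CPM in vector libraries, which overlap. Col4a3 and Col4a4, known from the kidney filter, stayed at or under 1.61 CPM in every library. Col9a2 and Col9a3, chains of cartilage type IX, reached at most 1.22 CPM, Col22a1, of tissue junctions, 1.19 CPM and the fibrillar chain Col24a1 3.54 CPM. Col11a1, a minor fibrillar chain, reached 4.13 CPM in 1 TNBS library and at most 1.97 CPM in IBC and vector libraries. Of the fuller ones, Col6a3, the long type VI chain, had 44.5 to 236 CPM in IBC, 43.0 to 166 CPM in TNBS and 51.8 to 169 CPM in vector libraries, and Col15a1, the other multiplexin, 14.7 to 72.4, 10.4 to 59.0 and 26 to 94.6 CPM in the same order.

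The 5 members that did not pass the filter on low counts include collagens of cartilage. Summed over 18 libraries, Col2a1, the cartilage fibril chain, had 7 counts, Col9a1 68 and Col10a1, of hypertrophic cartilage, 84. Col19a1 had 22 counts and Col26a1 106. Summed markers of cartilage and bone reached at most 2.77 CPM in any library. The other 39 members were tested.

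**Figure D1:**
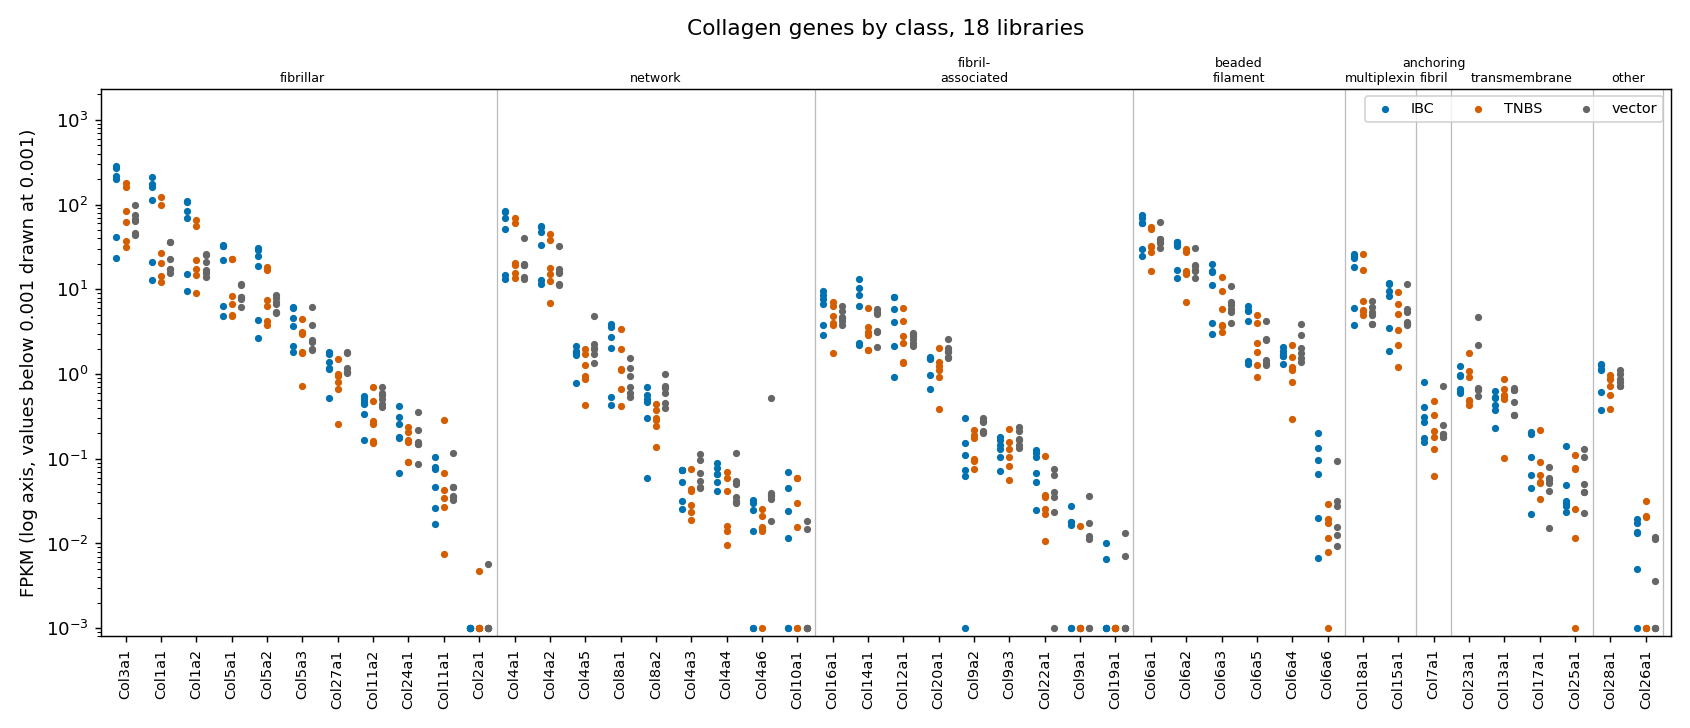
FPKM of the collagen genes on a log axis, grouped by class, with each point a library of IBC, TNBS or vector. Col3a1 has the highest mean of the fibrillar class at 111 FPKM, Col6a1 of the beaded-filament class at 43.2 FPKM and Col4a1 of the network class at 35.5 FPKM.

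Promoter sequence is shown for Col1a2 and Col3a1 and for the pair Col4a1 and Col4a2, because Col1a2, Col3a1 and Col4a1 were highest in the same 6 libraries and Col4a1 and Col4a2 share a start region. RefSeq (GRCm38.p6) held windows of 250 bases before to 50 after the start for 35 of the 44 genes. Each is written 5′ to 3′ on the strand of its gene. Capitals mark every match, on either strand, to a CCAAT box (CCAAT), a GC box (GGGCGG) or a TATA box (TATAAA), none of which overlapped another here.
Col1a2, chr6:4505368-4505667, plus strand: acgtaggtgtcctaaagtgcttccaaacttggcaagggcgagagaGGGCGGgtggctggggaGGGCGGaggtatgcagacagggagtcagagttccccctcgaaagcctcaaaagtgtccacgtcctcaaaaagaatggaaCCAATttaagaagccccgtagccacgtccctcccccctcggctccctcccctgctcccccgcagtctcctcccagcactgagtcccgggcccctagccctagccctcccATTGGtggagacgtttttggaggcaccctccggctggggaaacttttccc
Col3a1, chr1:45311288-45311587, plus strand: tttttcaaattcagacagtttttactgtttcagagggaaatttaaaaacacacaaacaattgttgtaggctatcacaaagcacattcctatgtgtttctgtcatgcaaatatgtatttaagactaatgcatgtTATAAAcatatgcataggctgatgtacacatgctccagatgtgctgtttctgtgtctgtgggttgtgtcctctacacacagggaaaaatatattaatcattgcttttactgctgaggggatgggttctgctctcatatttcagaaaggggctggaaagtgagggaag
Col4a1, chr8:11312777-11313076, minus strand: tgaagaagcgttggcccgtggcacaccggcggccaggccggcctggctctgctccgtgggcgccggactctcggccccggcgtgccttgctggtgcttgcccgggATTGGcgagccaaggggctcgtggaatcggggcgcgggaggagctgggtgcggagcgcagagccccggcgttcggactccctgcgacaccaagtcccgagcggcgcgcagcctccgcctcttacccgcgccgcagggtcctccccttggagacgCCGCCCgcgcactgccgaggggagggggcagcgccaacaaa
Col4a2, chr8:11312555-11312854, plus strand: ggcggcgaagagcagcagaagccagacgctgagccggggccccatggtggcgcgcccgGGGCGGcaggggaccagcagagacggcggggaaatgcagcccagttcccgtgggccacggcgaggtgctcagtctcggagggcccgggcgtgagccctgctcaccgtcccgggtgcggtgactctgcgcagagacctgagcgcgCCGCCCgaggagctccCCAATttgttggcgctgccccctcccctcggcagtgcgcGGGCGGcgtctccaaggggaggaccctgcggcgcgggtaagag
The Col1a2 window held 2 CCAAT and 2 GC-box matches. The Col3a1 window held 1 TATAAA match and neither of the other motifs. The Col4a1 window held 1 CCAAT and 1 GC-box match, and the Col4a2 window 1 CCAAT and 3 GC-box matches. These genes lie head to head, with starts 21 bases apart in RefSeq, so that their windows share 78 bases read in opposite directions.

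Of 32851 RefSeq windows of this length, 37.4% held the CCAAT box, 35.7% the GC box and 13.6% the TATA box. Among the 38 windows of collagen genes, some of which have more than 1, the shares were 34.2%, 60.5% and 13.2%. A match describes letters and is not evidence of a site in use. In the coordinates of the deposited table, which name no build, Col4a1 spans 11248423 to 11362826 on the minus strand of chromosome 8 and Col4a2 11362805 to 11499287 on the plus strand. The genes overlap by 22 bases there, and the other type IV pairs lie head to head too, Col4a3 and Col4a4 71 bases apart and Col4a5 and Col4a6 1308 bases apart. Overlapping genes are uncertain, since the labels do not say whether reads were counted by strand.

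The highest values of many abundant members, though not of Col6a1 and Col6a2 by CPM, came from the same libraries. Col1a1 (chromosome 11, 94827050 to 94843868, plus strand in the table) had 1363, 749.6, 1103 and 1109 CPM in IBC 1, 3, 4 and 6, and 815 and 725 CPM in TNBS 1 and 4. IBC 2 and 5 had 158 and 104 CPM, the other TNBS libraries 92.4 to 189 CPM and the vector libraries 111 to 308 CPM. These 6 libraries, all high in Hoxb13, were also the 6 highest for Col1a2, Col3a1, Col5a1, Col5a2, Col12a1, Col18a1, Col4a1 and Col8a1. That makes 9 members with Col1a1, by which the 6 were picked. The share of all genes with the same 6 highest libraries was not counted. In RNA of whole tissue, more cells of a type and more RNA per cell cannot be told apart.

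By summed level, fibrillar chains averaged 3715 ± 2337 CPM in IBC, 2041 ± 1402 CPM in TNBS and 1405 ± 464 CPM in vector libraries (SD, n = 6 each). Network chains averaged 672 ± 365, 461 ± 306 and 347 ± 191 CPM in the same order, and beaded-filament chains 681 ± 240.3, 471 ± 185 and 523 ± 211 CPM. The SD of the fibrillar sum in IBC libraries was as large as the differences between the group means, since IBC 2 and 5 lay low and the other 4 high. Collagen genes took 0.633% to 0.93% of all counts in the 4 IBC libraries high in Hoxb13, 0.189% to 0.608% in such TNBS libraries and 0.172% to 0.302% in such vector libraries.

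Other members peaked elsewhere. By CPM, vector 3 had the highest value of the 18 libraries in 13 of the 39 tested members. Among them were Col6a1 at 349 CPM, Col6a2 at 329 CPM and Col4a5, a basement membrane chain, at 42.3 CPM. The order depends on the unit. In FPKM Col6a1 was highest in IBC 6, at 74.7 against 61.6 in vector 3. Col6a2 was highest in IBC 1, at 36.5 against 30.5 FPKM in vector 3, and Col4a5 stayed highest in vector 3. Col23a1, a transmembrane collagen, had 35.2 CPM in vector 3 and at most 13.8 CPM in any other library. TNBS 5 had the lowest value of 16 of the 39, among them Col6a1 at 99.6 CPM and Col4a5 at 3.94 CPM. The shares of all genes that were highest in vector 3 or lowest in TNBS 5 were not counted. Col4a6, whose chain joins that of Col4a5, was at 4.53 CPM in vector 6 and at most 0.411 CPM in the other vector libraries.

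**Figure D2:**
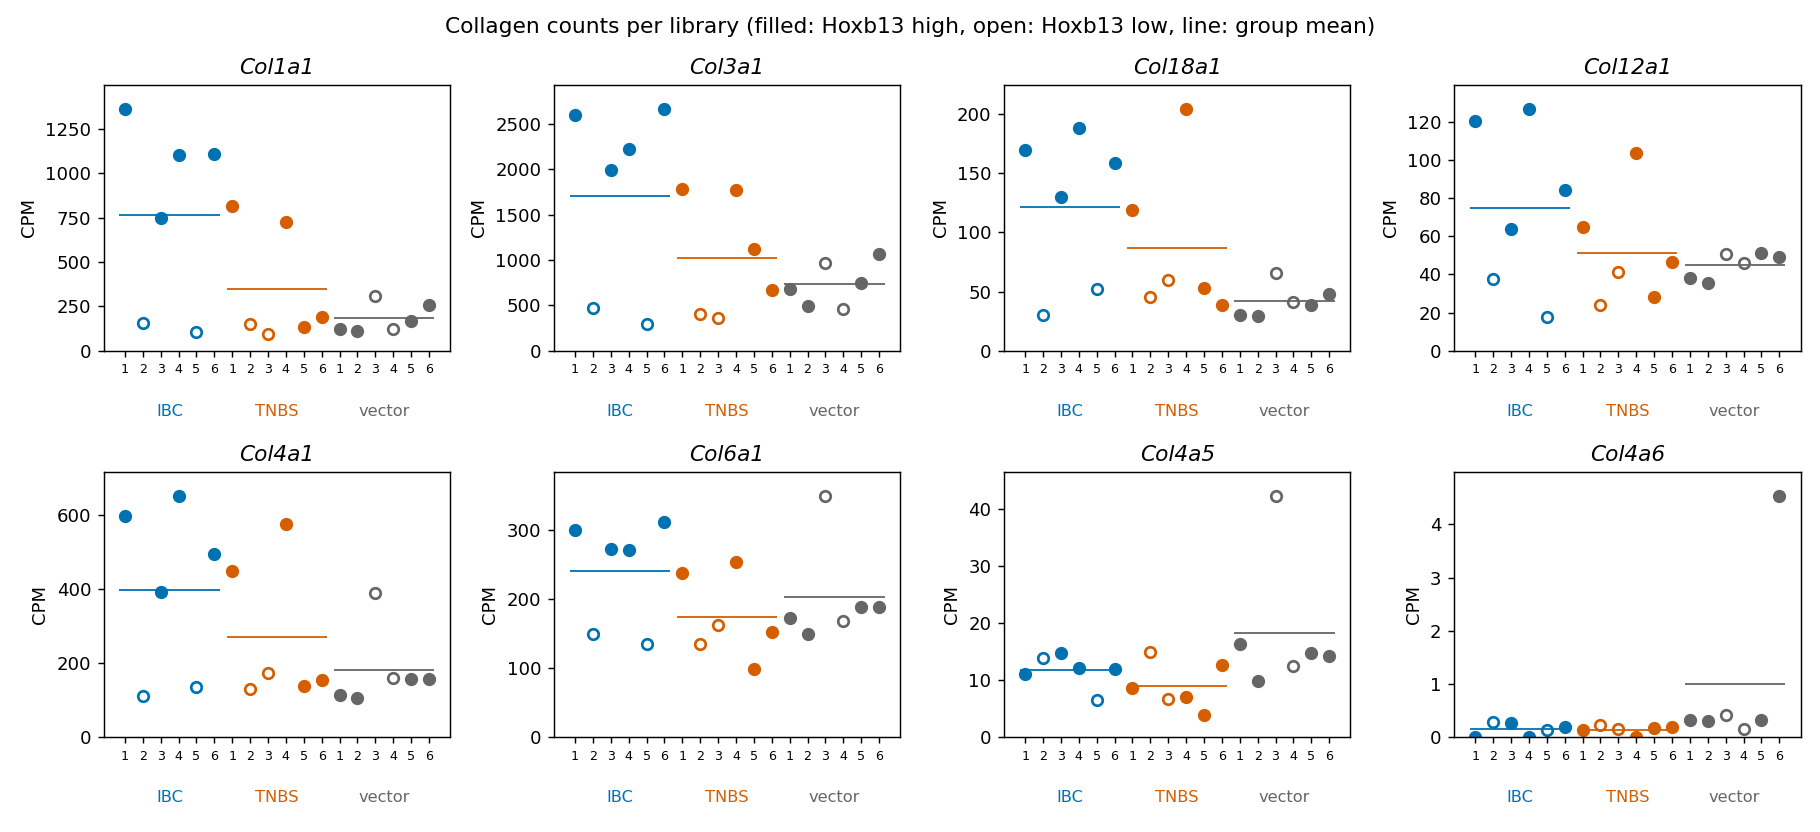
CPM by library for chosen collagen genes, with IBC, TNBS and vector from left to right, filled points for libraries high in Hoxb13, open points for those low in it and lines at the group means. For Col1a1 the points of IBC 1, 3, 4 and 6 and TNBS 1 and 4 lie between 725 and 1363 CPM and all others at or below 308 CPM.

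Chains that share a protein kept narrower ratios than their levels. Col6a1 over Col6a2, in FPKM, was 1.77 to 2.05 in IBC, 1.74 to 2.37 in TNBS and 2.02 to 2.29 in vector libraries. Col4a1 over Col4a2 was 1.39 ± 0.195 in IBC, 1.45 ± 0.311 in TNBS and 1.20 ± 0.0506 in vector libraries (SD, n = 6 each). For the type I chains, Col1a1 over Col1a2 was 1.64 ± 0.257 in IBC, 1.40 ± 0.372 in TNBS and 1.20 ± 0.162 in vector libraries.

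Type III stood lower against type I in IBC than in vector libraries. Col3a1 over Col1a1 was 1.27 to 1.99 in IBC, 1.46 to 5.73 in TNBS and 2.09 to 3.65 in vector libraries, so that every IBC library lay below every vector library, including those low in Hoxb13. TNBS 1, 2 and 4, at 1.46, 1.81 and 1.64, lay within the IBC range, and the highest TNBS value was that of TNBS 5. Among the multiplexins, Col18a1 over Col15a1 was 1.07 to 3.21 in IBC, 0.990 to 4.64 in TNBS and 0.627 to 1.30 in vector libraries, which overlap. The ratios were looked at as 10 pairs of genes and were not tested.

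**Figure D3:**
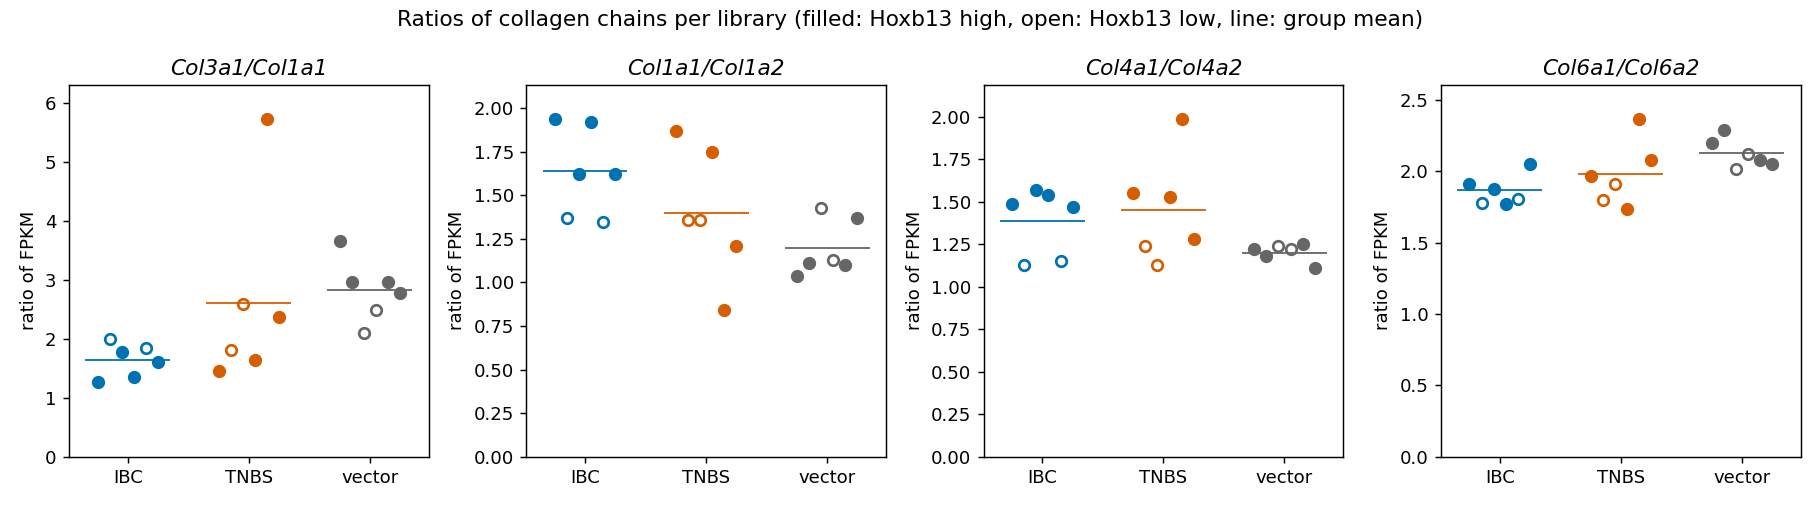
Ratios of FPKM per library, with IBC, TNBS and vector from left to right, filled points for libraries high in Hoxb13 and open points for those low in it. Col3a1 over Col1a1 lies at 1.27 to 1.99 in IBC and 2.09 to 3.65 in vector libraries, and TNBS 5 stands alone at 5.73.

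TNBS against vector is the comparison of the colitis model with its control. TNBS libraries had higher values than vector libraries for Col18a1 and lower values for 8 chains, each with a median of at most 17.8 CPM in vector libraries, at an unadjusted p under 0.05 and none past the threshold. The abundant basement membrane chains were on the higher side, with a log2 fold change of 0.58 ± 0.48 for Col4a1 and 0.32 ± 0.44 for Col4a2 (SE), which became 0.23 and 0.00 without TNBS 4 and 0.97 and 0.68 without vector 3. By edgeR's quasi-likelihood test with a Benjamini-Hochberg adjusted p under 0.05 over 20855 genes, 0 of 39 collagen genes and 0.0192% of all genes were called. At an unadjusted p under 0.05, 1 collagen gene was higher, against 10.4% of all genes, and 8 were lower, against 7.32%. DESeq2 called 0 collagen genes, with 2.75% of all genes called, and limma called 0, with 0.0%.

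The fold change was above 0 for 14 of 39 collagen genes, against 48.9% of all genes. The median log2 fold change was -0.25 for collagen genes and -0.01 for all genes. By class it was 0.42 for 10 tested fibrillar genes, -0.16 for 6 beaded-filament, -0.39 for 7 fibril-associated and -0.79 for 8 network genes. Without vector 3 the median over the 39 was 0.01, and 3 genes in place of 9 had an unadjusted p under 0.05, against 14.6% of all genes. The median was -0.11 without TNBS 5 and -0.17 without vector 4.

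Col18a1 was the gene on the higher side. It had 38.2, 56.6 and 204 CPM as the lowest, median and highest TNBS library, against 29.5, 39.7 and 65.7 CPM in vector libraries. TNBS 4 and TNBS 1 were high and the other 4 lay within the vector range. The log2 fold change was 1.04 ± 0.45 (SE; edgeR adjusted p 0.246 by Benjamini-Hochberg), and 0.61 without TNBS 4.

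The main fibrillar chains overlapped between the groups. Col1a1 had 92.4, 169.9 and 815 CPM as the lowest, median and highest TNBS library, against 111, 146 and 308 CPM in vector libraries, with a log2 fold change of 0.94 ± 0.62 (SE; edgeR adjusted p 0.417 by Benjamini-Hochberg). Col3a1 had 358, 893 and 1786 CPM in TNBS, against 464, 708 and 1071 CPM in vector libraries, with 0.47 ± 0.51. The log2 fold change of Col1a1 was 0.50 without TNBS 1 and 0.62 without TNBS 4, and that of Col3a1 0.24 and 0.26. TNBS 3 and TNBS 2 held the lowest Col3a1 values of the TNBS group, TNBS 1 and 4 the highest.

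On the lower side, Col4a5 had 3.94, 7.87 and 15.0 CPM as the lowest, median and highest TNBS library, against 9.90, 14.6 and 42.3 CPM in vector libraries. The groups overlap, and vector 3 is far above the rest. The log2 fold change was -1.02 ± 0.35 (SE; edgeR adjusted p 0.189 by Benjamini-Hochberg), and -0.58 without vector 3. Col4a6 had 0.0 to 0.240 CPM in TNBS and 0.164 to 4.53 CPM in vector libraries, and its log2 fold change of -2.77 ± 1.00 became -1.05 without vector 6.

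Col8a2, a short network chain, had 0.698, 1.66 and 2.14 CPM as the lowest, median and highest TNBS library, against 1.94, 3.17 and 4.93 CPM in vector libraries. TNBS 3 and TNBS 6 reached into the vector range, and the other 4 lay below it. The log2 fold change was -1.07 ± 0.39 (SE; edgeR adjusted p 0.202 by Benjamini-Hochberg). The other 5 were the type VI chain Col6a4 at -0.95 ± 0.36, the fibril-associated Col20a1 at -0.71 ± 0.28, the type IV chain Col4a3 at -0.90 ± 0.39, and the minor fibrillar chains Col11a2 at -0.70 ± 0.31 and Col27a1 at -0.65 ± 0.30 on the same scale.

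Markers of smooth muscle, a source of type IV and VI collagen, stood lower in TNBS than in vector libraries. Of 8 such markers 0 had a fold change above 0, 3 were lower at an unadjusted p under 0.05 (7.32% of all genes) and 1, Synm, was called by edgeR. IBC against vector also had 0 of 8 above 0, with 3 lower (3.63% of all genes) and 0 called. In that comparison the median log2 fold change was 0.53 for beaded-filament and -0.14 for network genes. The markers summed to 1990 to 4710 CPM in TNBS, 2540 to 5220 CPM in IBC and 3070 to 8800 CPM in vector libraries. Vector 3 was the highest. The part of smooth muscle in the collagen values was not tested.

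IBC against TNBS sets the compound's group against the colitis group. IBC libraries had higher values than TNBS libraries for most collagen genes, none past the threshold. The fold change was above 0 for 33 of 39 collagen genes, against 50.3% of all genes, and the median log2 fold change was 0.49, against 0.00 for all genes. EdgeR called 0 collagen genes and 0.0% of all genes, DESeq2 called 0 and 0.00959%, and limma called 0 and 0.0%. At an unadjusted p under 0.05, 2 collagen genes were higher (1.71% of all genes) and 0 lower (2.22%). The class medians were 0.67 for fibrillar, 0.52 for beaded-filament, 0.46 for network and 0.37 for fibril-associated genes.

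Col14a1, which binds the surface of type I fibrils, had 17.6, 52.9 and 87.5 CPM as the lowest, median and highest IBC library, against 15.5, 23.1 and 42.5 CPM in TNBS libraries. IBC 1, 3, 4 and 6 lay above every TNBS library, and IBC 2 and 5 within the TNBS range. The log2 fold change was 1.00 ± 0.38 (SE; edgeR adjusted p 0.925 by Benjamini-Hochberg). Col6a6, a rare type VI chain, had 0.0844, 0.765 and 1.77 CPM in IBC, against 0.0, 0.164 and 0.313 CPM in TNBS libraries, with 2.38 ± 0.80.

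Col1a1 had 104, 926 and 1363 CPM as the lowest, median and highest IBC library, against 92.4, 169.9 and 815 CPM in TNBS libraries, with a log2 fold change of 1.12 ± 0.62 (SE). Col1a2 had 146, 982 and 1329 CPM in IBC, against 129, 294 and 826 CPM in TNBS libraries, with 0.96 ± 0.52. In both genes IBC 2 and 5 lay low and TNBS 1 and 4 high within their groups, so the groups overlap. The counts here depend on single libraries: 12 collagen genes had an unadjusted p under 0.05 without IBC 5, 9 without TNBS 4, 7 without IBC 2, 7 without TNBS 1 and 1 without IBC 6. The shares of all genes in these fits were 11%, 4.21%, 3.94%, 5.7% and 2.3% in the same order.

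IBC against vector sets the compound's group against the control, and uses the same vector libraries as TNBS against vector. IBC libraries had higher values than vector libraries for both type I chains, Col3a1, Col5a1, Col5a2, Col4a1, Col8a1 and Col18a1, each at an unadjusted p under 0.05. EdgeR called 0 collagen genes and 0.0% of all genes, DESeq2 called 2 collagen genes and 0.882% of all genes, and limma called 0 collagen genes and 0.0% of all genes. At an unadjusted p under 0.05, 8 were higher (4.9% of all genes) and 2, Col4a6 and Col20a1, were lower (3.63%). The fold change was above 0 for 25 of 39, against 49.1% of all genes. The median was 0.24 for collagen genes and -0.01 for all genes, and 0.63 for collagen genes without vector 3. It was 0.12 without IBC 1, 0.15 without IBC 6, 0.15 without vector 2 and 0.38 without IBC 5. With the Hoxb13 set as a term in the fit edgeR called 0 collagen genes in TNBS against vector (0.681% of all genes), 0 in IBC against TNBS (0.0%) and 0 in IBC against vector (0.0192%). At an unadjusted p under 0.05 that fit gave 8 (21.7% of all genes), 2 (5.35%) and 7 collagen genes (10.9%) in the same order.

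Col1a1 averaged 764 ± 528 CPM in IBC and 182 ± 82.1 CPM in vector libraries (SD, n = 6 each). Its log2 fold change was 2.07 ± 0.64 (SE), with a Benjamini-Hochberg adjusted p of 0.326 by edgeR and 0.0417 by DESeq2. Col18a1 had 30.5, 144 and 188 CPM as the lowest, median and highest IBC library, against 29.5, 39.7 and 65.7 CPM in vector libraries, with 1.53 ± 0.45 and an adjusted p of 0.313 by edgeR and 0.0454 by DESeq2. In both genes IBC 1, 3, 4 and 6 lay above every vector library and IBC 2 and 5 did not.

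Col1a2 had 146, 982 and 1329 CPM as the lowest, median and highest IBC library, against 189, 256 and 408 CPM in vector libraries, with a log2 fold change of 1.56 ± 0.52 (SE). Col3a1 had 288, 2110 and 2665 CPM in IBC, against 464, 708 and 1071 CPM in vector libraries, with 1.22 ± 0.51. Col4a1 had 113, 443 and 653 CPM in IBC, against 107, 159 and 391 CPM in vector libraries, with 1.13 ± 0.49. The edgeR adjusted p by Benjamini-Hochberg was 0.380 for Col1a2, 0.517 for Col3a1 and 0.532 for Col4a1. Type V chains, which nucleate type I fibrils, were at 1.16 ± 0.45 for Col5a1 and 1.27 ± 0.48 for Col5a2. Col12a1 was at 0.74 ± 0.40, Col4a2 at 0.86 ± 0.44 and Col6a1 at 0.24 ± 0.27.

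**Figure D4:**
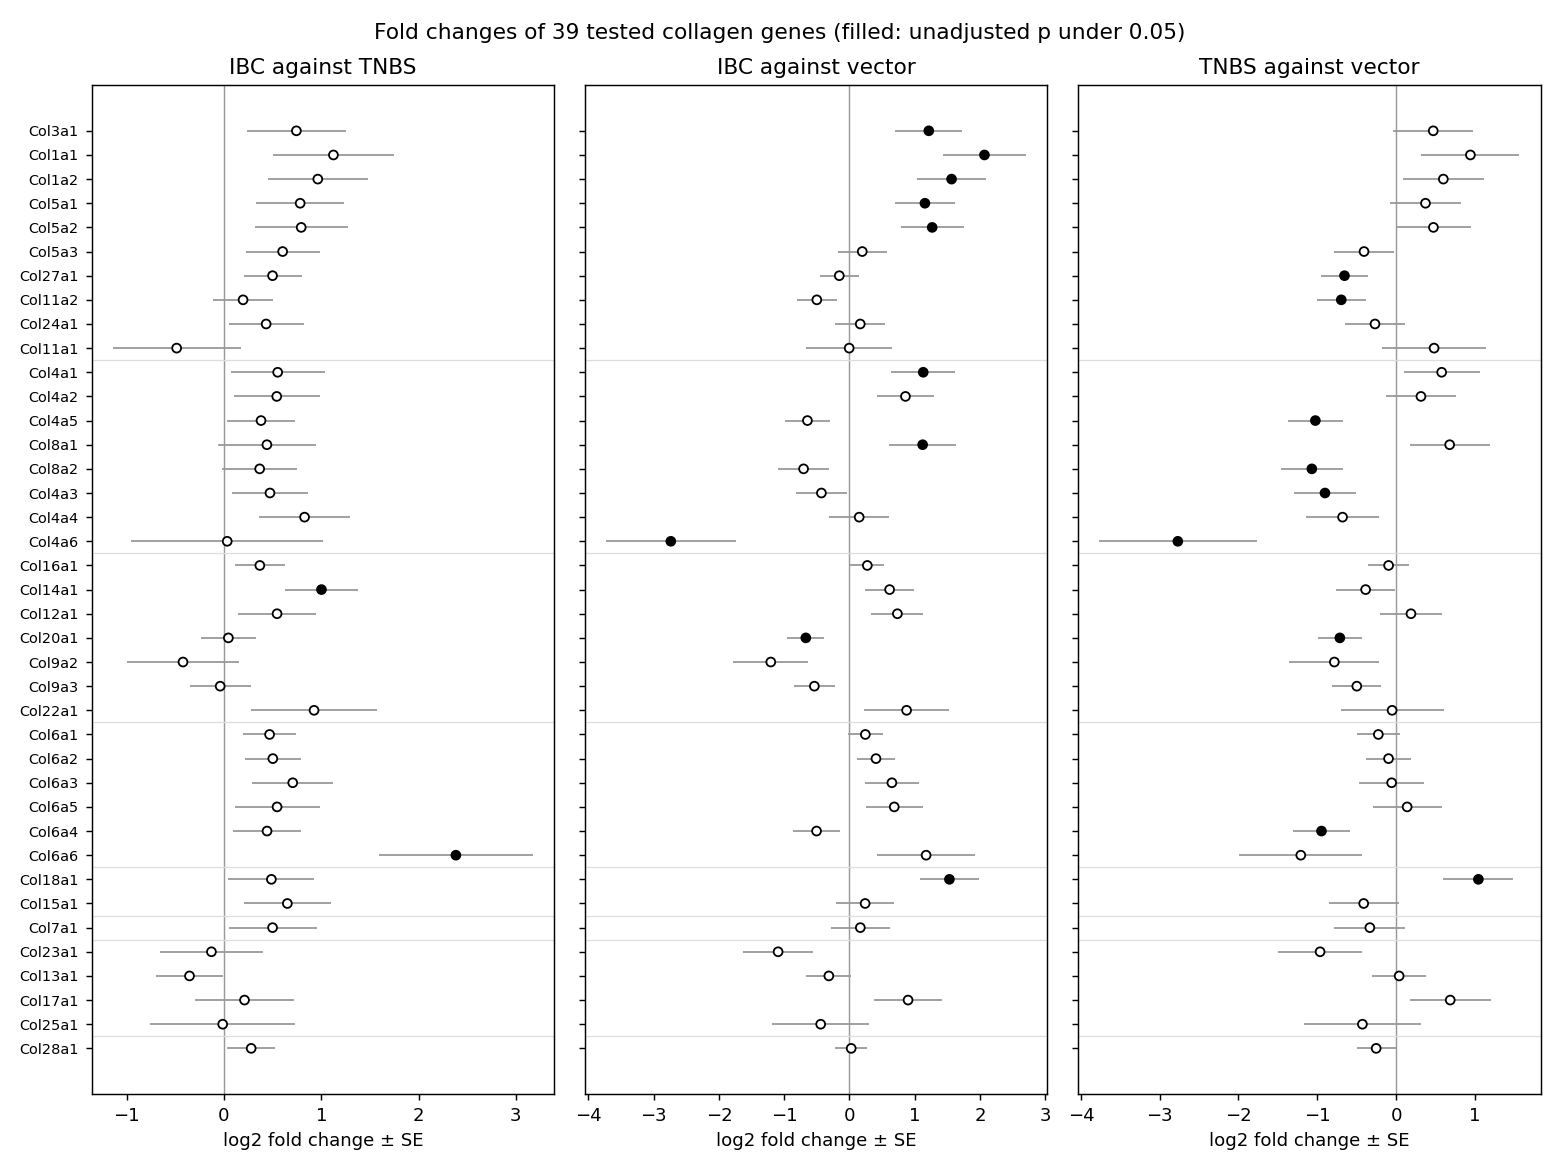
Log2 fold change ± SE from edgeR of the 39 tested collagen genes in each of 3 comparisons, by class, with filled points at an unadjusted p under 0.05. In IBC against TNBS 33 of 39 lie above 0, and in TNBS against vector 8 filled points lie below 0 and 1 above it.

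Within the 12 libraries high in Hoxb13, fitted alone with 4 libraries a group, IBC and vector libraries stood further apart. Both type I chains, Col3a1, Col5a1, Col5a2, Col4a1, Col4a2, both multiplexins and the type VI chains other than Col6a4 had higher values in every IBC library than in every vector library. There were 19 such collagen genes of 39, against 6.82% of all genes, and 2 with every IBC library lower, against 4.93%. At an unadjusted p under 0.05, 22 were higher (7.16% of all genes) and 1 lower (2.91%). The fold change was above 0 for 29, against 49.2% of all genes, with a median of 0.82, against -0.01.

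EdgeR called 2 collagen genes, Col1a2 and Col5a2, with 0.143% of all genes called, and DESeq2 called 14, with 3.17% of all genes called. Col1a2 had 1329, 877, 1087 and 1296 CPM in IBC 1, 3, 4 and 6, against 225, 189, 288 and 356 CPM in vector 1, 2, 5 and 6. It rose by 2.15 ± 0.37 on the log2 scale (SE; edgeR adjusted p 0.0493 by Benjamini-Hochberg). Col5a2 had 287, 184, 245 and 269.7 CPM in these IBC libraries, against 68.3, 54.4, 75.8 and 89.1 CPM in these vector libraries, and rose by 1.81 ± 0.31 (edgeR adjusted p 0.0493). The edgeR count was 0 whenever any of IBC 1, 3, 4 and 6 or vector 1, 2, 5 and 6 was left out, with 0.0% to 0.0791% of all genes called. It was 4 without TNBS 1 (0.46% of all genes), 13 without TNBS 5 (1.35%) and 10 without TNBS 6 (1.39%), which share in the estimate of spread.

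Other abundant chains lay close to the threshold. Col1a1 had 1363, 749.6, 1103 and 1109 CPM in these IBC libraries, against 124, 111, 167 and 258 CPM in these vector libraries, with a log2 fold change of 2.74 ± 0.55 (SE; edgeR adjusted p 0.0604 by Benjamini-Hochberg). Col3a1 had 2596, 1991, 2228 and 2665 CPM in IBC, against 675, 491, 741 and 1071 CPM in vector libraries, with 1.70 ± 0.32 (edgeR adjusted p 0.0598). Col18a1 had 169, 130, 188 and 159 CPM in IBC, against 29.7, 29.5, 38.6 and 47.7 CPM in vector libraries, with 2.18 ± 0.43 (edgeR adjusted p 0.0604). The groups do not overlap for any of these genes.

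In the basement membrane, Col4a1 had 597, 392, 653 and 495 CPM in IBC, against 113, 107, 159 and 159 CPM in vector libraries of the set, with a log2 fold change of 2.02 ± 0.42 (SE; edgeR adjusted p 0.0656 by Benjamini-Hochberg). Its partner Col4a2 was at 1.67 ± 0.43. Not all type IV chains followed, since Col4a5 was at -0.12 ± 0.29, with 11.1 to 14.8 CPM in IBC and 9.90 to 16.3 CPM in vector libraries. Type VI chains were at 0.76 ± 0.25 for Col6a1, 0.93 ± 0.30 for Col6a2 and 1.40 ± 0.31 for Col6a3. Of the chains along fibrils, Col12a1 was at 1.21 ± 0.35, Col14a1 at 1.03 ± 0.30 and Col16a1 at 0.66 ± 0.29. The epithelial Col7a1 was at 0.28 ± 0.56 and Col17a1 at 1.17 ± 0.49.

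TNBS libraries of the set were split. Col1a1 had 815, 725, 130.5 and 189 CPM in TNBS 1, 4, 5 and 6, so that TNBS 1 lay within the IBC range, TNBS 4 just below it and TNBS 5 and 6 within the vector range. Against vector libraries, 9 collagen genes were higher at an unadjusted p under 0.05 (7.03% of all genes) and 5 lower (5.14%). EdgeR called 0 collagen genes and 0.0% of all genes, and DESeq2 3 and 2.4%. In 3 collagen genes, Col20a1, Col4a6 and Col8a2, every TNBS library lay below every vector library, against 3.33% of all genes.

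IBC libraries of the set had higher values than TNBS libraries for 34 of 39 collagen genes (52.1% of all genes), 14 of them at an unadjusted p under 0.05 (5.23% of all genes), and 0 were lower (5.64%). EdgeR called 0 collagen genes and 0.0% of all genes, and DESeq2 2 and 0.642%. In 7 collagen genes every IBC library lay above every TNBS library, against 2.8% of all genes. They were Col1a2, Col3a1, Col5a2, Col6a1, Col6a6, Col14a1 and Col28a1. Col14a1 had 71.2, 60.4, 45.4 and 87.5 CPM in IBC, against 42.5, 22.6, 18.2 and 23.6 CPM in TNBS libraries of the set, with a log2 fold change of 1.33 ± 0.31 (SE; edgeR adjusted p 0.375 by Benjamini-Hochberg). Col6a6 was at 3.47 ± 0.76.

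The 6 libraries low in Hoxb13 did not show the excess in IBC. Col1a1 had 158 and 104 CPM in IBC 2 and 5, 151 and 92.4 CPM in TNBS 2 and 3, and 308 and 125 CPM in vector 3 and 4. In IBC against vector 1 of 40 tested collagen genes had a fold change above 0, against 47.9% of all genes, 15 were lower at an unadjusted p under 0.05 (7.81%) and 22 lower without overlap (25.6%). EdgeR called 0 collagen genes and 0.0% of all genes. The median was -0.89.

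TNBS against vector gave like values in these libraries, with 3 of 40 above 0 (46.7% of all genes), 10 lower at an unadjusted p under 0.05 (7.11%), 18 lower without overlap (25.9%), 0 called by edgeR (0.0%) and a median of -0.80. With 2 libraries a group, both comparisons rest on vector 3 and 4. For Col1a1, the log2 fold change of IBC against vector was -0.73 ± 0.46 (SE) in this set and 2.74 ± 0.55 in the set high in Hoxb13.

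That difference between sets was tested as the log2 fold change in libraries high in Hoxb13 minus that in libraries low in it. For IBC against vector, edgeR called 0 collagen genes (0.0048% of all genes), and 24 of 39 were larger in the high set at an unadjusted p under 0.05 (7.28%). The smallest Benjamini-Hochberg adjusted p from edgeR was 0.0964, for Col5a2 with a difference of 2.74 ± 0.52 and Col6a3 with 2.71 ± 0.53 (SE). Without vector 3, 0 of 40 were called (0.0284% of all genes) and 16 were larger at an unadjusted p under 0.05 (4.59%). In 12 collagen genes, against 1.64% of all genes, IBC libraries lay above vector libraries in the high set and below them in the low set with no overlap in either, among them Col4a1, Col4a2, Col5a1, Col5a2, Col6a1, Col6a3 and Col12a1. The sets were defined by a gene measured in these libraries and not by a label.

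**Figure D5:**
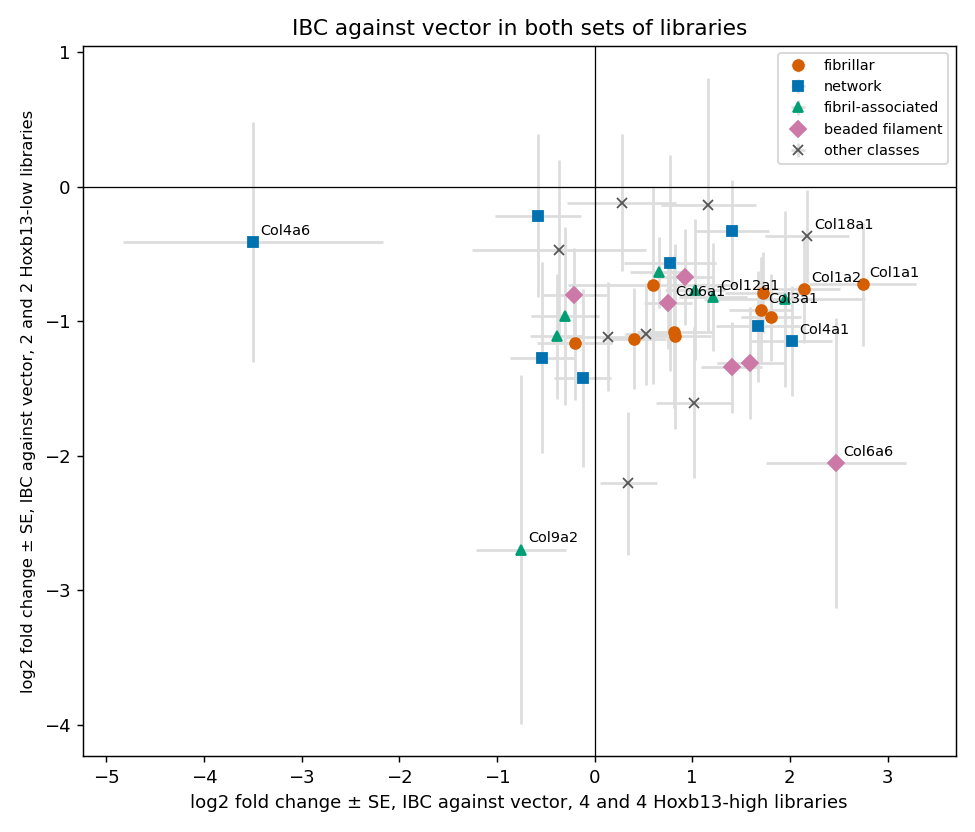
Log2 fold change ± SE of IBC against vector for 39 collagen genes in the libraries high in Hoxb13 on the x axis and in those low in it on the y axis, by class. All 39 lie below 0 on the y axis and 29 of them above 0 on the x axis.

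Genes that act on collagen were taken from lists, whose counts stand beside the shares of all genes at an unadjusted p under 0.05. Those were 10.4% higher and 7.32% lower in TNBS against vector, 4.9% and 3.63% in IBC against vector, and 1.71% and 2.22% in IBC against TNBS. For the enzymes and chaperones of modification and folding, 7 of 20 were higher and 2 lower in TNBS than in vector libraries at an unadjusted p under 0.05, and 0 were called by edgeR. Plod3, a lysyl hydroxylase, was at 0.41 ± 0.13 and P3h2, a prolyl hydroxylase, at -1.10 ± 0.34 (log2 fold change ± SE; edgeR adjusted p 0.172 and 0.166 by Benjamini-Hochberg). Serpinh1, the collagen chaperone, had 98.6 to 252 CPM in TNBS and 80.0 to 141 CPM in vector libraries, with 0.84 ± 0.27. In IBC against vector 7 were higher and 1 lower, and in IBC against TNBS 0 and 0, with 0 called.

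Of 13 tested genes of procollagen processing and crosslinking, 2 were higher in TNBS than in vector libraries at an unadjusted p under 0.05 and 0 lower, and 0 were called. With 10.4% of all genes higher, 2 of 13 is close to the background. The 2 were Lox, a lysyl oxidase that starts crosslinks, at 1.87 ± 0.72 and the transglutaminase Tgm2 at 0.84 ± 0.31. Lox had 77.1, 26.3, 72 and 57.8 CPM in IBC 1, 3, 4 and 6 and 33.2 and 68.6 CPM in TNBS 1 and 4, the libraries highest in Col1a1. It also had 43.7 CPM in TNBS 5, where Col1a1 was low, and at most 12.8 CPM in the other 11 libraries.

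In the set high in Hoxb13, IBC against vector gave 11 higher of 20 genes of modification and folding and 9 higher of 13 of processing and crosslinking at an unadjusted p under 0.05, with 0 lower and 0 called by edgeR in both, against 7.16% of all genes higher and 2.91% lower. Lox was at 3.18 ± 0.60 there, Loxl2, a related oxidase, at 1.66 ± 0.30 and Serpinh1 at 1.38 ± 0.27 (log2 fold change ± SE).

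Among collagenases, gelatinases and their inhibitors, 5 of 9 tested genes were higher in TNBS than in vector libraries at an unadjusted p under 0.05 (10.4% of all genes), 0 lower and 0 called by edgeR. Mmp8, the neutrophil collagenase, had 0.124 to 5.22 CPM in TNBS and 0.0 to 0.178 CPM in vector libraries (edgeR adjusted p 0.0903 by Benjamini-Hochberg). Timp1, an inhibitor of these proteases, had 1.37 to 41.3 CPM in TNBS and 2.00 to 3.77 CPM in vector libraries (edgeR adjusted p 0.103). In IBC against vector 6 of 9 were higher (4.9% of all genes), 0 lower and 0 called, and in IBC against TNBS 0, 0 and 0. Mmp13, a collagenase of stromal cells, had 2.33 to 25.5 CPM in IBC and 0.584 to 2.44 CPM in vector libraries.

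Of 10 collagen receptors, 0 were higher and 2 lower in TNBS than in vector libraries at an unadjusted p under 0.05 (7.32% of all genes lower), the integrin chains Itga11 at -1.25 ± 0.43 and Itga1 at -0.62 ± 0.22 (log2 fold change ± SE). In IBC against vector 1 was higher, Mrc2, a receptor that takes up collagen, at 1.40 ± 0.38. Of 12 fibril-binding proteoglycans and glycoproteins, 1 was higher and 3 were lower in TNBS against vector, with Tnxb, a tenascin, at -1.21 ± 0.40 and Prelp, a leucine-rich proteoglycan, at -0.85 ± 0.34. In IBC against vector 3 were higher and 0 lower, among them Sparc, a collagen-binding protein, at 1.10 ± 0.42. With 10.4% of all genes higher in TNBS against vector and 4.9% in IBC against vector, a single higher gene of 10 or 12 is close to the background. EdgeR called none of the genes of these 2 lists in any of the 3 comparisons.

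Pdgfra, a fibroblast receptor, had 49.2 to 121 CPM in IBC, 48.0 to 81.7 CPM in TNBS and 46.7 to 116 CPM in vector libraries. Col1a1 over Pdgfra, in FPKM, was 12.4 ± 7.68 in IBC, 7.32 ± 5.82 in TNBS and 4.24 ± 2.13 in vector libraries (SD, n = 6 each). In the set high in Hoxb13, the 8 fibroblast markers summed to 734 to 1060 CPM in IBC, 408 to 1030 CPM in TNBS and 508 to 728 CPM in vector libraries, and 3 of 8 were higher in IBC than in vector libraries at an unadjusted p under 0.05, against 7.16% of all genes.

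Markers of other cell types also differed in level between these groups, none of those given next called by edgeR. In TNBS against vector, 5 of 5 neutrophil, 3 of 4 tested squamous and 2 of 4 mesothelial markers were higher at an unadjusted p under 0.05 over all libraries, against 10.4% of all genes. S100a8, a neutrophil protein, had 0.129 to 9.20 CPM in IBC, 0.155 to 80.9 CPM in TNBS and 0.0 to 0.409 CPM in vector libraries. The next values are those of IBC against vector in the set high in Hoxb13, where 7.16% of all genes were higher. Endothelial markers, of cells that rest on type IV collagen, were higher at an unadjusted p under 0.05 for 4 of 6, with summed levels of 235 to 326 CPM in IBC and 129 to 184 CPM in vector libraries. The counts were 3 of 4 immune, 4 of 5 neutrophil and 4 of 5 tested squamous markers. Mmp8 is in the neutrophil list as well as among the collagenases. Other lists went the other way. A fold change above 0 was seen for 0 of 8 smooth muscle, 1 of 8 colon epithelium and 1 of 5 enteric glia markers (49.2% of all genes). Of 2 tested pancreatic acinar markers 2 were lower at an unadjusted p under 0.05 (2.91% of all genes). The acinar markers summed to 11900 CPM in vector 6 and to 319, 238 and 89.3 CPM in vector 1, 2 and 5. IBC libraries of the set had 85.9 to 307 CPM, so the levels differ mainly by vector 6. Squamous markers summed to 11.9 to 41.2 CPM in IBC and 2.01 to 4.66 CPM in vector libraries, and neutrophil markers to 64.3 to 214 and 45.4 to 156 CPM in the same order. Adipocyte markers were higher in IBC than in TNBS libraries of the set for 5 of 5 at an unadjusted p under 0.05 (5.23% of all genes), with 72.9 to 310 CPM in IBC and 22.2 to 89.1 CPM in TNBS libraries. The part of these markers in the collagen values was not tested.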

How the data were processed

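Oligo(dT)-selected RNA of mouse colon was sequenced in 18 libraries, 6 each of IBC, TNBS and vector, per the labels. Reads were trimmed with cutadapt 1.9, per the submitters' processing notes, and the aligner, counter, annotation and genome build were not given in the sources used here. Per the file headers, the authors deposited a count and an FPKM value for each gene and library. Counts of 4 occurred in 19961 gene and library pairs, against 9977 for counts of 3 and 6358 for counts of 5. How many counts stand for 1 fragment is thus unknown, so counts divided by 4 were tried and no limit is given at counts of 0.

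Low counts were filtered by filterByExpr and libraries scaled by TMM in edgeR 4.0.16 (R 4.3.3). Its quasi-likelihood test was fitted to all 18 libraries at once, two-sided, with Benjamini-Hochberg adjustment over all genes tested and a threshold of 0.05. DESeq2 1.42.0 and limma 3.58.1 on log2(FPKM + 0.1) were alternatives. Libraries above and below 50 CPM of Hoxb13 were also filtered, scaled and fitted as sets of their own. The test of the difference between sets and the alternatives within the high set were added after seeing the data. On data simulated for IBC against vector over 20855 genes, the step recovered 85% of 4-fold and 30% of 2-fold changes. Changes were placed only in better-expressed genes, and counts were drawn without the split by Hoxb13. These shares may therefore not hold for collagen genes that are low or that differ between the sets. Totals of 55.7 to 78.9 (in units of 1e6 counts) set the precision of each value.

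Members, lists, marker sets and comparisons were chosen with earlier results of these data known. Genes named by rule are the highest members of each class, Col1a1, Col1a2, Col3a1, Col4a1, Col4a2, Col6a1, Col12a1, Col7a1 and Col17a1, members called by edgeR, and those of smallest p, with the 2 smallest p of each list. Other genes named with values were chosen after their values were seen.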

Additional observations from a re-analysis of the deposited data

Results flagged for a closer look

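Of 93 groups of 6 libraries looked at, over the named genes and 10 ratios, 14 had a highest or lowest library whose gap to the nearest other exceeded Dixon's 95% limit for the range of the group. Chance gives about 1 in 20 groups where values spread normally, which CPM and ratios need not do. The genes are not independent, and some were named for a small p, so 14 of 93 cannot be set against that rate.

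Vector 3 stood above the other vector libraries in 7 genes. Of the basement membrane chains it had 391 CPM of Col4a1, 280 CPM of Col4a2 and 42.3 CPM of Col4a5, where the others had at most 160, 126 and 16.3 CPM. Of the type VI chains it had 349 CPM of Col6a1, 329 CPM of Col6a2 and 1.14 CPM of Col6a6, where the others had at most 189, 175 and 0.321 CPM. Its Col20a1, a fibril-associated chain, was at 17.1 CPM against at most 11.4 CPM. The same library had 18% mitochondrial counts and 8800 CPM of summed smooth muscle markers, both the highest of the 18, and their part was not tested.

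Vector 6 had 4.53 CPM of the basement membrane chain Col4a6 and 8.26 CPM of the anchoring-fibril chain Col7a1, where the other vector libraries had at most 0.411 and 2.86 CPM. Its FPKM ratio of Col1a1 to Pdgfra was 8.46, against at most 4.05. The part of the pancreatic acinar RNA in this library was not tested. IBC 1 had 8.13 CPM of Col7a1, where the other IBC libraries had at most 4.08 CPM, and TNBS 1 had 1.34 CPM of Col17a1, the hemidesmosome collagen, where the other TNBS libraries had at most 0.605 CPM.

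TNBS 5 had an FPKM ratio of Col3a1 to Col1a1 of 5.73, where the other TNBS libraries had at most 2.59, and of Col5a1 to Col5a2 of 0.662, where they had at least 1.23.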

How the results depend on the processing

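Alternatives gave 251 values of the counts and medians with the same call or size, and 36 that moved. Over all 18 libraries, no setting of scaling or filter turned the direction of a collagen median or of the genes whose fold change was followed. Within the libraries low in Hoxb13 the median log2 fold change was -0.80 in TNBS against vector, -0.10 in IBC against TNBS and -0.89 in IBC against vector. In IBC against TNBS of that set 1 gene had an unadjusted p under 0.05 (1.98% of all genes). Turned there were, for TNBS against vector, Col18a1 at -0.0162, Col1a1 at -0.83, Col1a2 at -0.86, Col3a1 at -0.90 and Col4a1 at -0.85. For IBC against TNBS they were Col6a6 at -0.71, Col14a1 at -0.22, Col3a1 at -0.0186 and Col4a1 at -0.30. For IBC against vector they were Col18a1 at -0.37, Col1a1 at -0.73, Col1a2 at -0.76, Col3a1 at -0.92 and Col4a1 at -1.15. Within the libraries high in Hoxb13 the counts at an unadjusted p under 0.05 were 14, 14 and 23 in the same order of comparisons, against 12.2%, 10.9% and 10.1% of all genes. In IBC against vector of that set 2 were called (0.143% of all genes) and the median was 0.82. The cause was not tested.

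DESeq2 called 2 in IBC against vector (0.882% of all genes). In that comparison limma gave 4 at an unadjusted p under 0.05 with a pseudocount of 0.1 (9.61% of all genes) and 5 with 1 (9.77%). A stricter filter and counts divided by 4 each gave 1 in IBC against TNBS (4.23% and 4.34% of all genes). For the 2 calls in the high set, DESeq2 gave 14 (3.17% of all genes), limma 4 (0.542%), and both no filter (0.00589%) and DESeq2 size factors (0.0761%) 0. Leaving out 1 library gave 3 to 10, 1 to 12 and 6 to 15 genes at an unadjusted p under 0.05 (TNBS against vector, IBC against TNBS, IBC against vector). In TNBS against vector the share of all genes was 14.6% without vector 3 (3 genes), and 16.9% without TNBS 2 and 19.7% without IBC 5 (10 each). In IBC against TNBS it was 2.3% without IBC 6 (1 gene) and 11% without IBC 5 (12). In IBC against vector it was 7.5% without IBC 4 (6 genes) and 7.13% without IBC 5 (15). In the high set there were 0 to 13 calls, with 1.35% of all genes called at 13. Of 18 same-numbered pairs of libraries 7 correlated above 0.1, with a median correlation of -0.02. Pairs of unlike number were not looked at, so these values cannot tell whether the numbers pair the libraries. With the replicate number as a block, 8, 2 and 8 genes had an unadjusted p under 0.05, against 18.8%, 4.25% and 8.09% of all genes. In that fit edgeR called 0 in each comparison (0.0048%, 0.0% and 0.0% of all genes), and the medians were -0.26, 0.49 and 0.19. The median of collagen genes in TNBS against vector was -0.12 with the stricter filter, which tests fewer genes. Within the high set it was 0.10 by edgeR and -0.06 by limma on log2(FPKM + 0.1). With limma on log2(FPKM + 1), a scale that shrinks the fold change of low genes, the medians were -0.04, 0.31 and 0.07 in the order above. Members under about 1 CPM, such as Col4a3, Col4a6, Col6a6 and Col17a1, rest on few fragments. On log2(FPKM + 0.1) the median of all genes in IBC against TNBS was 0.11, and that of collagen genes 0.52.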
